A study of Arabidopsis thaliana with 20 samples.

Results

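Root cells of 7-day-old Arabidopsis thaliana seedlings were compared between sections labelled elongation zone (EZ) and sections labelled meristematic zone (MZ), in 4 of the 20 libraries of the series. The seedlings were of ecotype Col-0 and carried PET111:GFP, a reporter of the columella of the root cap, and all groups share this genotype, the growth on medium with sucrose, the protoplasting of cut roots and the sort. Cells without GFP were collected, which leaves the columella out, and RNA was amplified with a low input kit before sequencing. EZ day 7 and MZ day 7 have 2 libraries each, which the series' design calls biological replicates; how many roots stand behind a library was not given in the sources used here. Of 33201 genes listed, 17061 reached 1 FPKM (fragments per kilobase of transcript, scaled to the mapped fragments of each library) in both libraries of at least one zone and were compared. Of these, 2268 reached it in both EZ libraries only and 637 in both MZ libraries only. The other 16 libraries, from days 3 to 6, helped to estimate the spread between replicates.

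In a growing root, cells divide in the meristem near the tip, where stem cells surround a quiescent center, and then stop dividing and lengthen in the elongation zone. Dividing cells make DNA, histones and many ribosomes. Lengthening cells loosen their walls, and vascular and endodermal cells begin to differentiate. The lateral root cap covers the outside of the meristem and ends in programmed cell death.

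At day 7 most genes of DNA replication, histones and ribosomes lay on the side labelled EZ, which is the opposite of what the zone names say, so libraries are called by their labels. The median difference of the replication list was on that side at every age, at 1.49, 1.53, 1.29, 0.92 and 1.18 from day 3 to day 7. Other lists did not all go against the zone names at day 7. Mitosis genes had a median of 0.31, equal to that of all genes, after 1.69, 0.88, 1.24 and 0.68 at days 3 to 6. Differentiation genes of the endodermis also lay on the EZ side, with a median of 0.82 (0.26 within replicate 1 and 1.41 within replicate 2). Whether sections or labels were exchanged was not tested, and an exchange would turn the sign of every difference given here. The sliding clamp of DNA replication, PCNA1 (AT1G07370), was at 29.9 and 13.7 FPKM in EZ and at 2.07 and 5.00 FPKM in MZ. Both EZ libraries were above both MZ libraries. PLT1 (AT3G20840), a transcription factor of the root stem cell niche, was at 13.6 and 2.13 FPKM in EZ and at 0.203 and 0 FPKM in MZ. PLT1 reached 1 FPKM in EZ only and was compared because of its values there, so that a difference was required of it by the filter. Of the 15 tested genes on its list, 6 were higher in both EZ libraries (40%), beside 36.8% of all genes. Of 18 tested genes of wall loosening and wall synthesis, 1 was higher in both EZ libraries and 7 were lower, with a median difference of -0.24. Of all genes, 36.8% were higher and 7.57% lower in this way. After quantile normalisation 1 and 9 of the 18 wall genes were, beside 20.6% and 20.2% of all genes. The 6 expansins among the wall genes had 1 higher and 0 lower without overlap in the deposited values, and 4 had positive differences. Root cap genes were present on both sides after a sort that left out the columella, with list means of 5.71 and 6.32 in EZ and 5.90 and 6.18 in MZ on the log2(FPKM + 1) scale. No member of the seed storage list passed the filter, and the genes of green tissue, 3 of which were tested (median 1.02, with 0 higher and 0 lower without overlap), reached at most 9.29 FPKM.

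The 4 libraries did not group by zone alone. Across genes, the Pearson correlation was 0.906 between the EZ replicates and 0.895 between the MZ replicates, against 0.905 between EZ and MZ replicate 1 and 0.901 between EZ and MZ replicate 2. The libraries that shared neither label were less alike, at 0.849 and 0.870. Among all 20 libraries, EZ replicate 2 was most like MZ day 6 replicate 2 (0.916) and EZ replicate 1 most like EZ day 4 replicate 1 (0.945). The steps between low values put the depth near 50.5 and 18.1 M fragments in EZ and 14.7 and 18.5 M in MZ. Between 50.2% and 72.4% of the values used lay within 0.1 of a whole step, so these depths are approximate. Values are therefore given library by library.

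All differences are EZ minus MZ on the log2(FPKM + 1) scale, and the ± beside them is the SE of the limma fit, with 2 libraries on each side and the spread pooled over 20. At a Benjamini-Hochberg adjusted p of 0.05 the fit passed 25 genes (0.147%), of which 23 were higher in EZ (0.135%) and 2 lower (0.0117%). At an unadjusted p under 0.05 there were 2786 higher (16.3%) and 209 lower (1.23%). Both EZ libraries lay above both MZ libraries for 6278 genes (36.8%) and below them for 1292 (7.57%). A gap of at least 2-fold between every EZ and every MZ library was met by 1200 genes above (7.03%) and 67 below (0.393%). The counts of list members given below stand beside these shares of all genes. The balance of genes above and below moved with the scaling. The median difference of all genes was 0.31 in the deposited values, -0.06 with quantiles made equal and -0.02 under median-of-ratios scaling. Quantile normalisation gave 3520 genes without overlap above (20.6%) and 3446 below (20.2%), and at 2-fold 614 (3.6%) and 244 (1.43%). Median-of-ratios scaling gave 3946 (23.1%) and 3412 (20%), and at 2-fold 752 (4.41%) and 136 (0.797%). Limma then passed 2 genes above and 5 below under the first, and 3 above and 2 below under the second. The median absolute gap between replicates was 0.58 in EZ and 0.52 in MZ at day 6, against 0.45 and 0.51 at day 7. The number of calls also rested on the day 6 libraries, and the part of that gap in it was not tested. Without all 4 of them, 911 genes passed as higher (5.34%) and 23 as lower (0.135%), the 25 among them. That alternative was chosen after the data were seen, and the values without day 6 given below are all from it. The settings fixed earlier mostly cut the calls: library weights gave 2, removal of the length trend 2, the 4 libraries of day 7 alone 3 and a replicate block 4, and 0 genes of the 26 lists passed in any of these. Of the 25 genes, 3 passed the filter on low values through EZ only and 2 through MZ only, so that a difference was required of them by the filter.

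**Figure D1:**
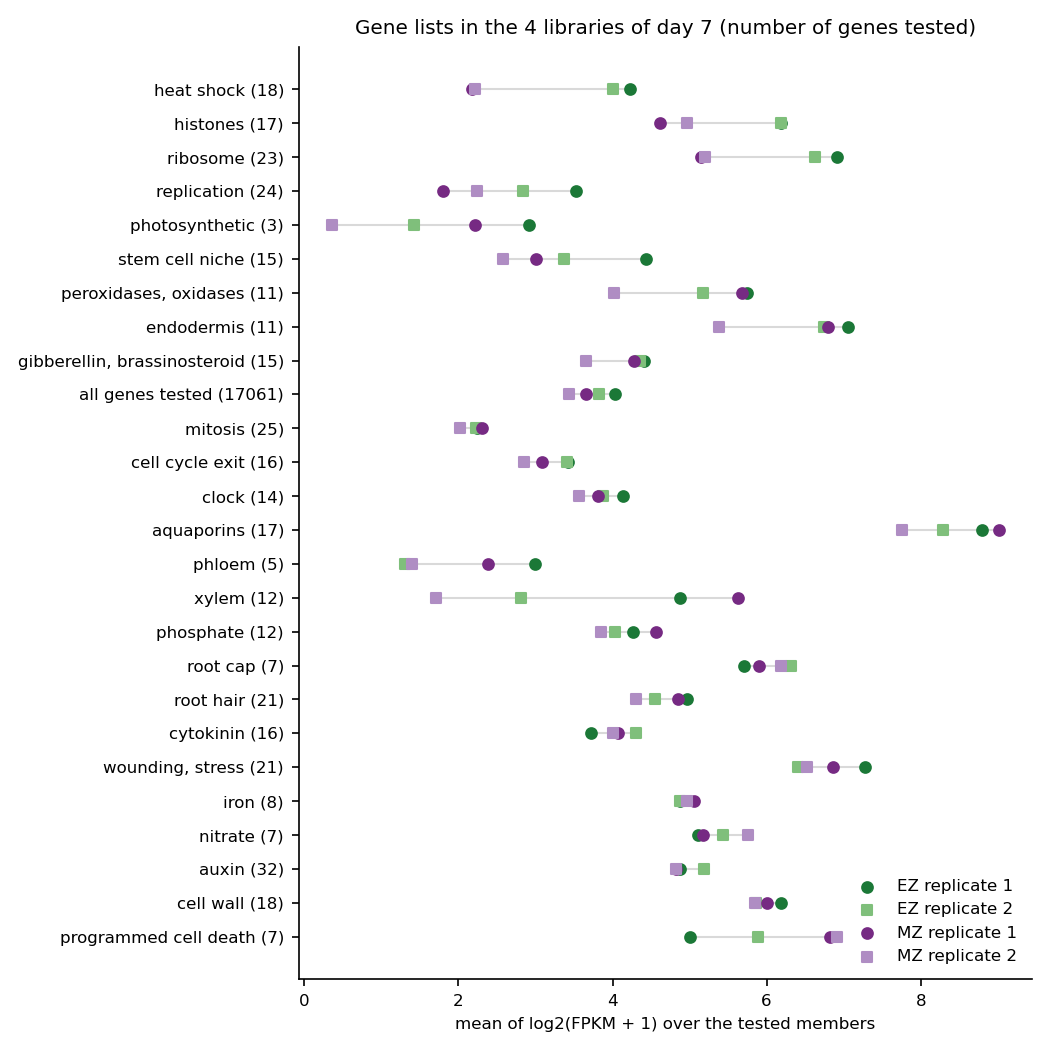
Mean log2(FPKM + 1) over the tested members of each list (number in brackets) in the 4 libraries of day 7, ordered by the median EZ minus MZ difference; circles are replicate 1, squares replicate 2. Both EZ libraries lie above both MZ libraries for heat shock, histone, ribosome and replication genes and below them for programmed cell death. They also lie above for all genes tested (4.03 and 3.82 against 3.65 and 3.43) and for some other lists, such as the stem cell niche. Xylem genes separate the replicates (4.87 and 5.63 against 2.81 and 1.71).

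Genes of ribosomes and of their assembly were higher in EZ. RPS6A (AT4G31700), a protein of the small ribosomal subunit and a target of growth signalling, was at 665 and 640 FPKM in EZ and at 187 and 247 FPKM in MZ. The large subunit protein gene RPL5A (AT3G25520) was at 539 and 461 FPKM in EZ and at 164 and 153 FPKM in MZ. In both genes the replicates of a zone lay close together and far from the other zone. RPS6A differed by 1.6 ± 0.36 (limma adjusted p = 0.068) and RPL5A by 1.65 ± 0.43 (limma adjusted p = 0.078), so neither passed; without the day 6 libraries both did, at limma adjusted p = 0.00792 and 0.00823.

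Other steps of ribosome making showed wider gaps with larger errors. The nucleolin gene NUC1 (AT1G48920), whose product binds ribosomal RNA genes in the nucleolus, was at 205 and 205 FPKM in EZ and at 47.0 and 31.5 FPKM in MZ. CBF5 (AT3G57150), which makes pseudouridine in ribosomal RNA, was at 81.8 and 71.4 FPKM in EZ and at 11.8 and 11.3 FPKM in MZ. Neither overlapped between zones, and neither passed, with differences of 2.38 ± 0.89 (limma adjusted p = 0.178) and 2.63 ± 1.06 (0.212); NUC1 passed without the day 6 libraries, at 0.0483. FIB2, a fibrillarin that methylates ribosomal RNA, differed by 2.93 ± 1.16 (limma adjusted p = 0.206). TOR, the kinase that couples growth to nutrients, overlapped, at 6.04 and 5.32 FPKM in EZ and 4.29 and 7.64 FPKM in MZ.

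Of the 23 tested ribosome genes, 22 were higher in both EZ libraries and 0 lower, 16 by at least 2-fold, with a median difference of 1.54 beside 0.31 for all genes. Limma passed 0 of the 23, with 19 at an unadjusted p under 0.05 and 15 passing without the day 6 libraries. The count without overlap was 21 under both other scalings, with medians of 1.32 for quantile normalisation and 1.17 for the other. Taking every gene described as a ribosomal protein, 309 were tested, 277 were higher in both EZ libraries and 1 lower, and 212 by at least 2-fold, with a median of 1.66. Limma passed 6 of these 309 as higher, and 209 without the day 6 libraries. Other families of protein and RNA handling lay on the same side: 24 of 28 chaperonin and prefoldin genes (median 1.3), 37 of 44 spliceosomal ribonucleoprotein genes (1.03) and 33 of 40 proteasome genes (0.53) were higher in both EZ libraries, with 0, 1 and 1 lower. Of all genes, 36.8% were higher and 7.57% lower. The proteasome count moved to 21 after quantile normalisation and to 14 after median-of-ratios scaling. Of 109 genes for pentatricopeptide repeat proteins, which edit and process organelle RNA, 59 were higher and 6 lower (0.64), against 32 and 22 after quantile normalisation.

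Of the 6 ribosomal protein genes past the threshold, the 3 with the largest differences are given here. The others are described as mitochondrial ribosomal protein L27 (AT5G40080), S21 family (AT3G26360) and L36 (AT5G20180), so the family is not limited to ribosomes of the cytosol. AT3G56020, for the tiny large-subunit protein L41, was at 281 and 279 FPKM in EZ and at 24.6 and 38.8 FPKM in MZ. It rose by 3.14 ± 0.56 (limma adjusted p = 0.0438). The second L41 gene, AT1G56045, was at 413 and 391 FPKM in EZ and at 41.7 and 84.4 FPKM in MZ and rose by 2.74 ± 0.49 (limma adjusted p = 0.0441). AT3G06320, of the L33 family, was at 45.3 and 37.2 FPKM in EZ and at 3.02 and 4.05 FPKM in MZ and rose by 3.22 ± 0.58 (limma adjusted p = 0.0452). Each had EZ replicates within a narrow band and no overlap with MZ, and each passed in 11 of 34 alternatives.

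The site II element TGGGCC is known in plants from promoters of ribosomal protein genes and of genes of proliferating cells. Within 300 bases before the annotated start, on either strand, TGGGCC stood in 11 of the 23 ribosome genes tested (47.8%), in 14.6% of 27443 nuclear protein-coding genes and in 18.1% of the 16520 of them tested. Of the 1156 such promoters of genes at least 2-fold higher in EZ, 373 held it (32.3%). The telo-box core AAACCCT stood in 3 of the 23 (13%), in 7.35% of the promoters tested and in 14.9% of those 1156. These shares describe letters, and no binding was measured. The promoters of one L41 gene and of RPS6A are shown because both genes carry the element just before their start, AT3G56020 at chr3:20791164-20791463 and RPS6A at chr4:15347805-15348104, both on the minus strand of TAIR10.1, with RefSeq's annotation. They are written 5′ to 3′ with matches to TGGGCC or its reverse complement in capitals.
AT3G56020: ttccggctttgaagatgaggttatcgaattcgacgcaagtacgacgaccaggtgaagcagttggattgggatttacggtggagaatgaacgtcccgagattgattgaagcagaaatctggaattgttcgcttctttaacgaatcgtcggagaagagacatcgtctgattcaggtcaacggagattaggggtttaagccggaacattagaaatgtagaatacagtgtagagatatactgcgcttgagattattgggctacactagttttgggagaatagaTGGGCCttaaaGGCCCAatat
RPS6A: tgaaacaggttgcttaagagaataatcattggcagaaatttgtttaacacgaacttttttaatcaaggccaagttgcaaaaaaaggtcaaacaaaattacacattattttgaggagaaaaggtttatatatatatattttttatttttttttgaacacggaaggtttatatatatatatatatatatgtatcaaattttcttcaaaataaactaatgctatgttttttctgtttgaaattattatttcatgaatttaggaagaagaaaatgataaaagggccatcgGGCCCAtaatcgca
In AT3G56020 the matches began 21 and 10 bases before the start, and in RPS6A 14 bases before it.

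Genes of DNA replication were higher in EZ, most so in replicate 1. MCM7 (AT4G02060), a subunit of the helicase that opens DNA, was at 16.8 and 11.8 FPKM in EZ and at 2.24 and 3.70 FPKM in MZ. MCM3 (AT5G46280), another subunit of it, was at 18.6 and 14.1 FPKM in EZ and at 2.90 and 9.97 FPKM in MZ. Neither overlapped, but MCM3 in MZ replicate 2 came close to EZ replicate 2. PCNA1 differed by 2.31 ± 0.50 (limma adjusted p = 0.0634), which was 3.33 within replicate 1 and 1.29 within replicate 2. Of the 24 tested, 19 were higher in both EZ libraries and 0 lower, 4 by at least 2-fold, with a median of 1.18 (5 passed the filter through EZ only), which was 1.76 within replicate 1 and 0.57 within replicate 2. Limma passed 0 of them, with 11 at an unadjusted p under 0.05; PCNA1, MCM7 and ORC6, which helps to mark origins, passed without the day 6 libraries. After quantile normalisation 10 did not overlap and after median-of-ratios scaling 15, all higher.

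Histone genes were higher in EZ in both replicates. The H2A.Z gene HTA11 (AT3G54560) was at 42.3 and 48.3 FPKM in EZ and at 8.75 and 6.48 FPKM in MZ. It rose by 2.44 ± 0.43 (limma adjusted p = 0.0393), the only member of the 26 lists to pass. It passed in 11 of 34 alternatives. The H2B gene HTB2 (AT5G22880) was at 103 and 148 FPKM in EZ and at 17.2 and 31.4 FPKM in MZ, and the H3 gene HTR2 (AT1G09200) at 236 and 375 FPKM in EZ and at 62.2 and 130 FPKM in MZ. Of 17 histone genes tested, 16 were higher in both EZ libraries and 0 lower, 9 by at least 2-fold, with a median of 1.71. Limma put 13 at an unadjusted p under 0.05, and 9 passed without the day 6 libraries. After quantile normalisation 14 were higher and 1 lower without overlap, and 12 and 1 after median-of-ratios scaling. HTR3 (AT3G27360), another H3 gene, stood at 125 and 110 FPKM in EZ and 113 and 106 FPKM in MZ, but 37.9% of its transcript is shared with other genes. The genes HTR4, HTR5 and HTR8, which encode the H3.3 form laid down outside replication, had differences of 1.02 ± 0.25, 0.40 ± 0.25 and 0.61 ± 0.24, with limma adjusted p of 0.074, 0.44 and 0.205.

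Mitotic genes did not lie on the EZ side as a group. The mitotic cyclin gene CYCB1;1 (AT4G37490) was at 4.62 and 1.47 FPKM in EZ and at 5.45 and 5.82 FPKM in MZ. Its relative CYCB1;2 (AT5G06150) was at 18.8 and 3.22 FPKM in EZ and at 37.5 and 13.8 FPKM in MZ. TPX2, a spindle assembly factor, was at 7.45 and 0.597 FPKM in EZ and at 8.06 and 6.44 FPKM in MZ. In each of them, EZ replicate 2 was the lowest library. The plant-specific kinase CDKB2;1 went the other way, at 10.5 and 13.8 FPKM in EZ and 4.15 and 5.94 FPKM in MZ, a difference of 1.12 ± 0.56 (limma adjusted p = 0.322). Of 25 mitosis and cytokinesis genes tested, 8 were higher in both EZ libraries (32%, beside 36.8% of all genes) and 3 lower (beside 7.57%). The list median was 0.31, equal to that of all genes, and -0.26 after quantile normalisation. Limma passed 0 of the 25, with 1 at an unadjusted p under 0.05 and 0 without the day 6 libraries. The cell cycle exit list holds both D-type cyclins and inhibitors of cyclin-dependent kinases, so its counts are not of exit genes alone. Of its 16 tested genes, 7 were higher (43.8%) and 1 lower (median 0.30, and -0.12 with quantile normalisation). The 7 were CYCD3;2, CYCD3;3, CYCD4;1, KRP2, SIM, SMR1 and RBR1. Among them SIM, an inhibitor of cyclin-dependent kinases that promotes endoreduplication, was at 30.8 and 32.3 FPKM in EZ and 19.2 and 19.4 FPKM in MZ, with 27.2% of its transcript shared with other genes.

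The promoters of MCM3 and CYCB1;1 stand for these pathways, since replication genes are known to be driven through E2F sites and B-type cyclins through the mitosis-specific activator (MSA) element. The E2F site TTCCCGC stood in 8 of the 24 replication genes tested (33.3%) and in 1.34% of all promoters of this length, and in 1.38% of those of the genes at least 2-fold higher in EZ. The MSA core CCAACGG stood in 6 of the 25 mitosis genes (24%), all of them B-type cyclins, and in 1.67% of all promoters. Both were searched on both strands, and neither is contained in the other. MCM3 lies at chr5:18773707-18774006 and CYCB1;1 at chr4:17624309-17624608, both on the minus strand, with the match in capitals.
MCM3: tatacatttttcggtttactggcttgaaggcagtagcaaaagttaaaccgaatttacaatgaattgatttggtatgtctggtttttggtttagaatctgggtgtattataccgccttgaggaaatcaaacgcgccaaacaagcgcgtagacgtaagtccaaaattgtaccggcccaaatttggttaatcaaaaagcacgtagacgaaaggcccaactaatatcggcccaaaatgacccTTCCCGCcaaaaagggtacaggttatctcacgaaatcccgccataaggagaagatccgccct
CYCB1;1: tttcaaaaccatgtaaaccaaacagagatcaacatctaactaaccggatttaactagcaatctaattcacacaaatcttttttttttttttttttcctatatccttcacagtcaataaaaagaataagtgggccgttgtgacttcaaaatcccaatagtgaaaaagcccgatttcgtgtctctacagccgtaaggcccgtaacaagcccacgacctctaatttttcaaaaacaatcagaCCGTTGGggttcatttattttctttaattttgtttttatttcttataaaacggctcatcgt
The match began 62 bases before the start of MCM3 and 61 bases before that of CYCB1;1.

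Stem cell niche genes were without overlap and higher in EZ about as often as all genes, 6 of 15 (40%) beside 36.8%, and 4 of the 15 passed the filter through EZ only. RGF3 (AT2G04025), a peptide that maintains the meristem, was at 40.1 and 19.4 FPKM in EZ and at 1.28 and 3.14 FPKM in MZ, a difference of 3.24 ± 0.70 (limma adjusted p = 0.0634, and 0.00895 without the day 6 libraries). PLT1 differed by 2.62 ± 0.87 (limma adjusted p = 0.132) and was among the 4 that passed the filter through EZ only. SHR, which specifies the ground tissue with SCR, overlapped, at 12.2 and 2.83 FPKM in EZ and 5.98 and 1.46 FPKM in MZ. GIF1, a coactivator that promotes growth, was at 71.3 FPKM in EZ replicate 1 and at 1.92, 5.02 and 0.421 FPKM in the other libraries. The median was 0.91, with 0 lower. Quantile normalisation left 4 higher and 1 lower (median 0.42), and median-of-ratios scaling 5 and 2 (0.62). Limma passed 0 of the 15, with 4 at an unadjusted p under 0.05 and RGF3 passing without the day 6 libraries, while 9 of the 24 on the list, WOX5 among them, did not pass the filter. UPB1 and HAM1, the most abundant members, overlapped.

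Heat shock genes had the largest list median. HSP17.6A (AT5G12030), a small heat shock protein gene, was at 56.2 and 38.3 FPKM in EZ and at 0.612 and 1.07 FPKM in MZ. HSP101 (AT1G74310), the chaperone that pulls apart aggregates, was at 7.42 and 16.2 FPKM in EZ and at 1.61 and 0 FPKM in MZ. HSP70 (AT3G12580) was at 80.2 and 57.6 FPKM in EZ and at 21.5 and 10.5 FPKM in MZ. For each of them, both EZ values exceeded both MZ values. HSP17.6A differed by 4.70 ± 1.03 (limma adjusted p = 0.0634), HSP101 by 2.90 ± 0.70 (0.0724) and HSP70 by 2.1 ± 0.54 (0.0761), and each passed without the day 6 libraries, at limma adjusted p = 0.00374, 0.0168 and 0.0153. Of 18 tested, 14 were higher in both EZ libraries and 0 lower, 11 by at least 2-fold, with a median of 1.98. Of these 18, 7 passed the filter through EZ only, HSP101 and HSP17.6A among them, and 1 through MZ only. Of the other 10, 7 were higher and 0 lower, with a median of 1.8. Limma passed 0, with 12 at an unadjusted p under 0.05 and 8 passing without the day 6 libraries, and 12 were higher without overlap under all 3 scalings. DREB2A, an abundant regulator of heat and drought responses, overlapped, at 892 and 1190 FPKM in EZ and 754 and 1168 FPKM in MZ. The wounding and stress list, in contrast, had a median of -0.01, with 2 of 21 members higher and 2 lower; its jasmonate repressor gene JAZ1 was at 703 and 564 FPKM in EZ and 814 and 692 FPKM in MZ, and the zinc finger gene ZAT12 at 546 and 904 FPKM in EZ and 583 and 775 FPKM in MZ.

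A heat shock element was sought as GAANNTTC, which reads the same on both strands. It stood in 6 of the 18 heat shock genes tested (33.3%), in 11.5% of all promoters and in 10.9% of those at least 2-fold higher in EZ. HSP17.6C, at 18 and 6.89 FPKM in EZ and 0 and 1.37 FPKM in MZ, is shown as a small heat shock gene with a match, in capitals, at chr1:19979999-19980298 on the plus strand.
HSP17.6C: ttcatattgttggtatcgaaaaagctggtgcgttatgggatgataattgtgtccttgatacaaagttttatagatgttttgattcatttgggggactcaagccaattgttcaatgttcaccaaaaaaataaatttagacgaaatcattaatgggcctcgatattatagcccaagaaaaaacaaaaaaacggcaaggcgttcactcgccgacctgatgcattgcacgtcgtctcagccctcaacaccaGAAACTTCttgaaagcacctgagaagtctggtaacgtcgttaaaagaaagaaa
The match began 53 bases before the start.

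**Figure D2:**
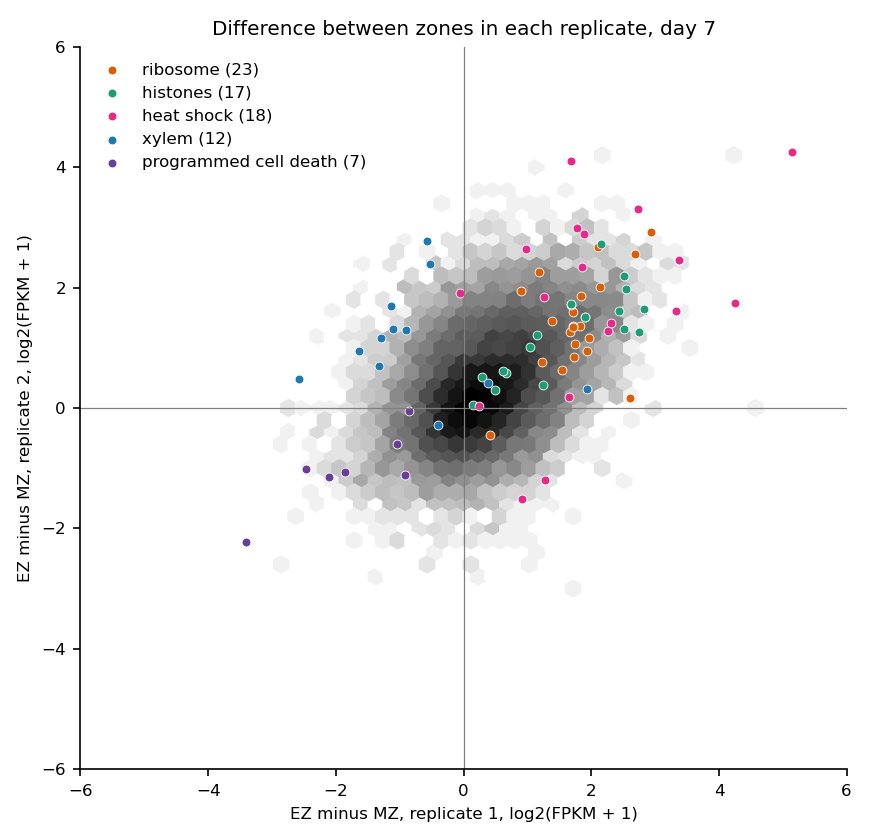
EZ minus MZ difference on the log2(FPKM + 1) scale within replicate 1 (horizontal) and within replicate 2 (vertical), for all 17061 genes (grey, darker where more genes fall) and the tested members of 5 lists. Ribosome, histone and heat shock genes lie mostly in the upper right and programmed cell death genes in the lower left, while xylem genes lie to the upper left, with medians of -1.0 in replicate 1 and 1.05 in replicate 2.

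Genes of programmed cell death lay on the MZ side, with the lowest median of the 25 lists that had tested members. MC9 (AT5G04200), a metacaspase of dying cells, was at 171 and 587 FPKM in EZ and at 951 and 1183 FPKM in MZ. BFN1 (AT1G11190), a nuclease that degrades nucleic acids in dying cells, was at 34.6 and 65.0 FPKM in EZ and at 152 and 144 FPKM in MZ. CEP1 (AT5G50260), a cysteine protease, was at 0 and 0.0395 FPKM in EZ and at 9.62 and 3.83 FPKM in MZ. None of these overlapped between zones. MC9 differed by -1.74 ± 0.70 (limma adjusted p = 0.211), BFN1 by -1.62 ± 0.63 (0.194) and CEP1 by -2.81 ± 0.70 (0.074), so none passed. CEP1 was under 1 FPKM in EZ and passed the filter through MZ only. Of the 7 tested, 6 were lower in both EZ libraries and 0 higher, 2 by at least 2-fold, with a median of -1.46, and the same 6 were lower without overlap under all 3 scalings. Without CEP1 it was 5 of 6, with a median of -1.23. Limma passed 0 of the 7, with 3 at an unadjusted p under 0.05. These genes are known from the lateral root cap and from xylem. The root cap list, at mean levels of 5.71 and 6.32 in EZ and 5.90 and 6.18 in MZ, had a median difference of 0.09 over its 7 members. Xylem genes, at 4.87 and 2.81 in EZ and 5.63 and 1.71 in MZ, had one of 0.16, and the part of these cells in the result was not tested. In bulk samples, fewer cells of a type and less RNA per cell cannot be told apart.

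Within the root cap list, members went different ways. RCPG (AT1G65570), a pectin-degrading enzyme of the cap, was at 170 and 320 FPKM in EZ and at 733 and 463 FPKM in MZ, a difference of -1.32 ± 0.62 (limma adjusted p = 0.295). SMB, a regulator of cap maturation, overlapped at 23.5 and 42.4 FPKM in EZ and 17.3 and 45.5 FPKM in MZ, and its sign turned to -0.20 under median-of-ratios scaling. FEZ, which drives stem cell division in the cap, was at 4.58 and 1.72 FPKM in EZ and 0.487 and 0.283 FPKM in MZ. FEZ was the 1 member that passed the filter through EZ only, so that a difference was required of it. Others followed the replicate rather than the zone: CEL5, a cap cellulase, was at 296 and 736 FPKM in EZ and at 220 and 867 FPKM in MZ. None of the 7 passed by limma (0), with 1 at an unadjusted p under 0.05.

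Among wall and growth genes, XTH18 (AT4G30280), which remodels xyloglucan, was at 518 and 457 FPKM in EZ and at 952 and 777 FPKM in MZ. The proton pump gene AHA2 (AT4G30190) was at 276 and 243 FPKM in EZ and at 398 and 360 FPKM in MZ. Both were lower in EZ without overlap, by -0.82 ± 0.45 (limma adjusted p = 0.366) and -0.55 ± 0.34 (0.431). Expansin genes were mixed, with EXPA4 higher in both EZ libraries, at 14.3 and 14.4 FPKM against 1.32 and 6.93 FPKM, and the root hair expansin EXPA7 at 73.0 and 22.5 FPKM in EZ and 62.5 and 16.1 FPKM in MZ. Of the 18 cell wall genes limma passed 0, with 1 at an unadjusted p under 0.05 and 0 without the day 6 libraries.

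Outside the lists, examples among the 67 genes at least 2-fold lower in EZ were chosen after their values were seen. One, sks9, related to a protein of directional root growth, was at 3.49 and 5.37 FPKM in EZ and at 40.2 and 22.7 FPKM in MZ (-2.55 ± 0.70, limma adjusted p = 0.0861). MYB30, a transcription factor of defence cell death and of root growth, was at 2.61 and 4.64 FPKM in EZ and at 17.1 and 22.9 FPKM in MZ (-2.20 ± 0.65, limma adjusted p = 0.10). Each was lower in both EZ libraries, and none passed.

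Xylem genes separated the replicates more than the zones. XCP1, a protease of maturing xylem vessels, was at 211 and 23.2 FPKM in EZ and at 316 and 2.52 FPKM in MZ. LAC4, a laccase of lignin formation, was at 34.2 and 1.57 FPKM in EZ and at 207 and 0.837 FPKM in MZ. MYB46, a master regulator of secondary walls, was at 30.4 and 8.14 FPKM in EZ and at 67.7 and 1.84 FPKM in MZ. In each, both first replicates were far above both second replicates. Of 12 xylem genes tested, 9 were at least 2-fold higher in replicate 1 than in replicate 2 in both zones and 0 the reverse, where 971 of all genes (5.69%) and 381 (2.23%) were. Their median gap between replicates was 1.92 in EZ and 4.44 in MZ, and the median zone difference was -1.0 within replicate 1 and 1.05 within replicate 2. SUC2, the sucrose loader of the phloem, was at 36.8 and 2.38 FPKM in EZ and at 17.1 and 8.56 FPKM in MZ, and 2 of the 5 phloem genes tested were at least 2-fold higher in replicate 1 in both zones.

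Endodermal genes had list means of 7.06 and 6.75 in EZ and of 6.80 and 5.38 in MZ. CASP1, a membrane protein that builds the Casparian strip, was at 1069 and 818 FPKM in EZ and at 606 and 262 FPKM in MZ. MYB36, which switches on the strip genes, was at 60.5 and 48.8 FPKM in EZ and at 68.8 and 15.4 FPKM in MZ. MZ replicate 2 was the lowest library for both. Of 11 tested, 5 were higher in both EZ libraries (45.5%, beside 36.8% of all genes) and 0 lower. The number higher was 3 after quantile normalisation, beside 20.6% of all genes, and 2 after median-of-ratios scaling, beside 23.1%. The list median was 0.82, but it was 0.26 within replicate 1 and 1.41 within replicate 2. The water channel gene PIP2;1 was at 2079 and 994 FPKM in EZ and at 2237 and 443 FPKM in MZ, and of 17 water channel genes tested 0 were higher and 1 lower without overlap (median 0.23). Limma passed 0 endodermal, xylem, phloem and water channel genes, with 0 of them at an unadjusted p under 0.05 and 0 passing without the day 6 libraries.

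**Figure D3:**
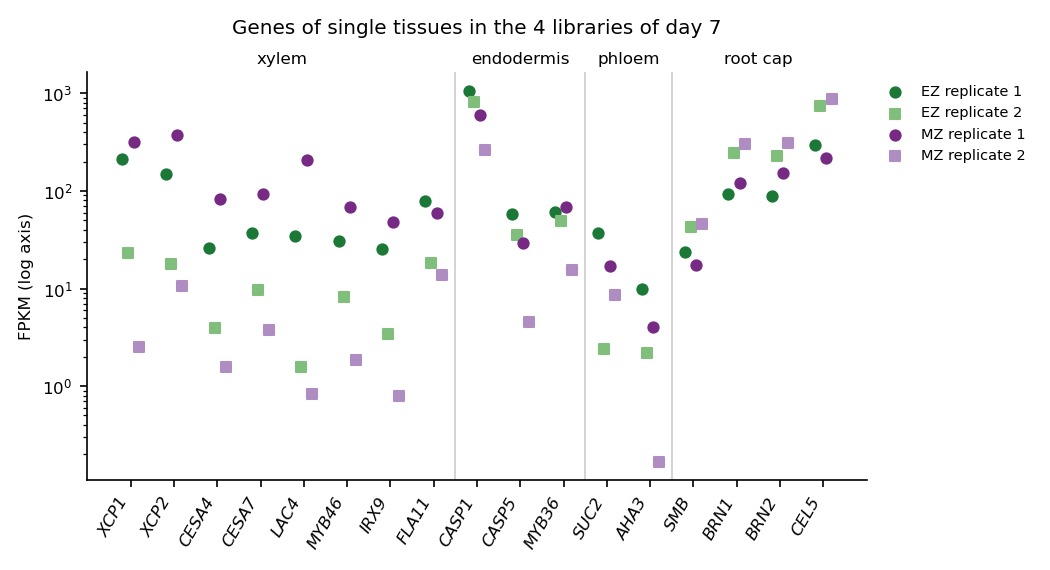
FPKM (log axis) of genes of xylem, endodermis, phloem and root cap in each of the 4 libraries of day 7; circles are replicate 1, squares replicate 2, green EZ and purple MZ. Xylem genes are high in both first replicates (XCP1 211 and 316) and low in both second replicates (23.2 and 2.52), and CEL5 shows the opposite order (296 and 220 against 736 and 867).

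The largest gaps between replicates of one zone lay in other genes as well. In EZ, BRU6, an auxin-conjugating enzyme gene, was at 2.39 FPKM in replicate 1 and 131 FPKM in replicate 2, with 10.9 and 62.1 FPKM in MZ. RAP2.9 was at 92.8 and 0 FPKM in EZ and 54.8 and 26.4 FPKM in MZ. The others in EZ were AT1G51035 and MIR169d, higher in replicate 2, and XPL1 and the small nucleolar RNA AT1G74456, higher in replicate 1. In MZ, GSTU14, a glutathione transferase gene, was at 3.96 FPKM in replicate 1 and 124 FPKM in replicate 2, with 40.4 and 10.7 FPKM in EZ. MIR166b and AT5G18661 were also higher in replicate 2 of MZ, while XCP1, LAC4 and GL22 (84.9 and 0 FPKM) were higher in replicate 1.

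Of all genes tested, 44.4% were without overlap in one direction or the other, and most hormone and nutrient lists lay below that share. Of 32 auxin genes, 7 were higher and 3 lower in both EZ libraries (median -0.20); the repressor IAA17 was at 466 and 511 FPKM in EZ and 446 and 469 FPKM in MZ. Of 16 cytokinin genes 0 were higher and 0 lower without overlap (0.02), and of 15 gibberellin and brassinosteroid genes 5 and 0 (0.38), with GASA1, a gibberellin-responsive peptide gene, at 2061 and 935 FPKM in EZ and 1827 and 329 FPKM in MZ. Among 11 peroxidase and NADPH oxidase genes 3 were higher and 1 lower (0.82), and among 21 root hair genes 2 and 2 (0.05). Some of the higher ones passed the filter through EZ only. Of those passing in both zones, 5 of 28 auxin genes were higher and 3 lower. It was 3 and 0 of 11 for gibberellin and brassinosteroid, 2 and 1 of 10 for peroxidases and oxidases, and 0 and 2 of 19 for root hairs. Of all genes passing in both zones, 34.6% were higher and 7.45% lower. For nutrients, 2 and 2 of 12 phosphate genes (0.13), 0 and 0 of 8 iron genes (-0.11) and 1 and 1 of 7 nitrate genes (-0.16) were higher and lower, with SQD2, which makes a phosphate-sparing membrane lipid, at 67.8 and 173 FPKM in EZ and 199 and 348 FPKM in MZ. The clock list had 6 higher and 3 lower of 14 (64.3%, median 0.27), led by the clock-controlled RNA-binding protein gene GRP7, at 547 and 699 FPKM in EZ and 108 and 200 FPKM in MZ (2.07 ± 0.72, limma adjusted p = 0.148). Limma passed 0 genes of each of these lists, 1 without the day 6 libraries (PER40, a peroxidase), with 1 to 3 at an unadjusted p under 0.05 in the auxin, gibberellin and brassinosteroid, peroxidase, root hair, phosphate and clock lists and 0 in the cytokinin, iron and nitrate lists. Families of defence and detoxification had nearly as many on each side or few on either: WRKY factors had 4 higher and 4 lower of 48 (0.03), cytochromes P450 15 and 17 of 108 (-0.02) and glutathione transferases 7 and 1 of 44 (-0.02). Medians this close to 0 turned with the scaling: those of the root hair, xylem, phloem, root cap, cytokinin and phosphate lists and of the WRKY family were below 0 under one or both other scalings, as was that of the clock list, and that of the water channels under median-of-ratios scaling.

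Most genes past the threshold had short transcripts. The 23 called as higher had a median transcript of 804 bp, beside 1712 bp for the tested genes with a length, and 16 of the called genes were in the shortest eighth, from 77 to 941 bp. Across all genes the median difference went from 0.68 in that eighth to 0.19 in the longest. With the trend on length removed within each library, 2 genes passed, 1 in each direction, and the list medians became 1.12 for ribosomes, 1.06 for histones, 0.85 for replication, 1.65 for heat shock and -1.96 for programmed cell death, beside -0.07 for all genes. The part of transcript length in the called differences was not tested further.

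Among the called genes, several serve chromosomes and organelles. EMB2795, a subunit of condensin, which compacts chromosomes, was at 6.6 and 5.04 FPKM in EZ and at 0 and 0.028 FPKM in MZ, and rose by 2.74 ± 0.40 (limma adjusted p = 0.0238). EMB2795 passed the filter through EZ only, so that a difference was required of it by the filter. OEP7, a protein of the outer plastid envelope, was at 26.4 and 23.3 FPKM in EZ and at 4.13 and 3.6 FPKM in MZ and rose by 2.41 ± 0.34 (limma adjusted p = 0.0227). EMB3003, an acyltransferase of the 2-oxoacid dehydrogenase family, was at 30.2 and 31.5 FPKM in EZ and at 8.95 and 10.3 FPKM in MZ and rose by 1.58 ± 0.27 (limma adjusted p = 0.0388). These examples were chosen after their values were seen. By the rule for named genes, AT3G07230, described as similar to a wound-responsive protein, was at 190 and 181 FPKM in EZ and at 18 and 38.8 FPKM in MZ, and AT3G09890, with ankyrin repeats, at 27.5 and 26.8 FPKM in EZ and at 4.10 and 3.3 FPKM in MZ. The noncoding RNA gene AT3G12965 was at 225 and 206 FPKM in EZ and at 22.2 and 37.8 FPKM in MZ, and another, AT1G79075, rose by 2.78 ± 0.47 (limma adjusted p = 0.0388). AT3G01572 was at 18.4 and 16.4 FPKM in EZ and listed at 0 in MZ (limma adjusted p = 7.75e-06). AT3G54804 and AT3G30456, the 2 genes called as lower, were at 28.9 and 22.4 FPKM and at 4.38 and 3.40 FPKM in MZ and listed at 0 in EZ. Each of the 3 entered the test only through the zone where it was present. All 3 were listed at 0 in the 16 libraries of the other ages, and the lower 2 were not matched to the annotation used here.

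**Figure D4:**
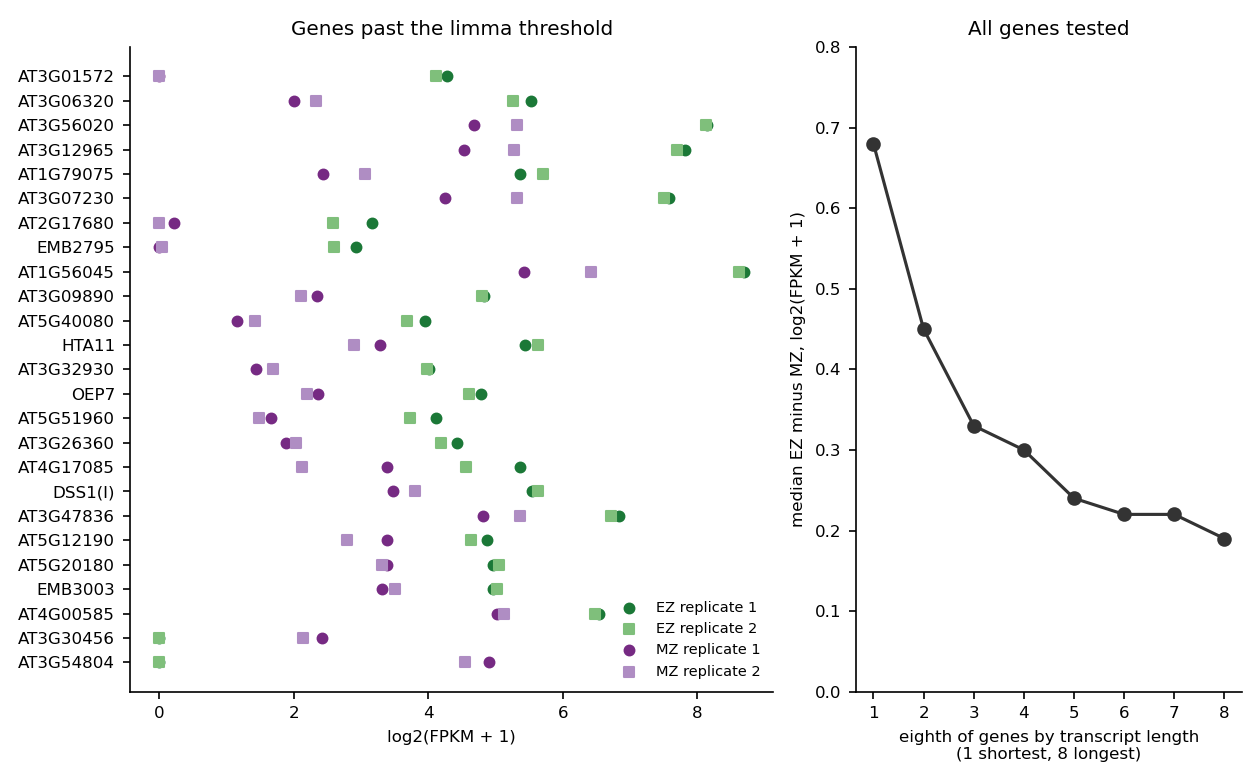
Left, log2(FPKM + 1) of the 25 genes past the limma threshold in each library of day 7 (circles replicate 1, squares replicate 2, green EZ, purple MZ). Right, median EZ minus MZ difference of all tested genes in 8 equal groups by transcript length, which goes from 0.68 in the shortest to 0.19 in the longest.

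The zone difference at day 7 was then tested against the mean zone difference of days 3 to 6, from the same fit, with no library in both. It was higher at day 7 for 22 genes (0.129%) and lower for 4 (0.0234%), and at an unadjusted p under 0.05 for 1427 (8.36%) and 237 (1.39%). The median over all genes was 0.25, beside zone medians of 0.09, 0.03, 0.12 and 0.03 at days 3, 4, 5 and 6 against 0.31 at day 7. For 16 of the 22, EZ was below MZ at each of the earlier ages and above it at day 7. Under quantile normalisation and under median-of-ratios scaling the split was 7 higher and 8 lower in each case.

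ACBP6 (AT1G31812), a carrier of acyl-CoA, shows the pattern: its zone difference was -0.88, -1.07, -0.54 and -0.63 at days 3 to 6, whereas at day 7 it was at 192 and 173 FPKM in EZ and 82.4 and 80.0 FPKM in MZ. The day 7 difference exceeded the earlier mean by 1.94 ± 0.26 (limma adjusted p = 0.0146). In the earlier libraries it ran from 191 to 470 FPKM, and at day 7 both MZ libraries and EZ replicate 2 lay below that range. AT5G49540, of the Rab5-interacting family, was at 34.6 and 38.8 FPKM in EZ and 27.3 and 24.5 FPKM in MZ at day 7, with differences of -0.84, -1.69, -1.21 and -1.32 before (1.75 ± 0.25, limma adjusted p = 0.0146). AT4G23885, with no known function, was at 63.7 and 56.5 FPKM in EZ and 35.1 and 38.1 FPKM in MZ at day 7, with differences of -1.25, -1.13, -0.96 and -1.48 before (1.90 ± 0.26, limma adjusted p = 0.0146). The 22 genes had a median transcript of 834.5 bp, the longest of 1409 bp.

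Limma passed 0 members of the 26 lists in this comparison. Mitosis genes had the lowest list median against the earlier ages, -0.63, with medians of 1.69, 0.88, 1.24 and 0.68 at days 3, 4, 5 and 6 and 0.31 at day 7. CYCB1;1, CYCB1;2 and TPX2 each had an unadjusted p under 0.05, with day 7 below the earlier mean by 2.37, 3.09 and 2.65, and limma adjusted p of 0.468, 0.42 and 0.419. Endodermal genes had the highest, 1.96, beside a zone median of -3.05 at day 6. Ribosome, replication, heat shock and cell death genes had medians of 0.09, -0.20, 0.12 and -0.01 against the earlier ages.

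**Figure D5:**
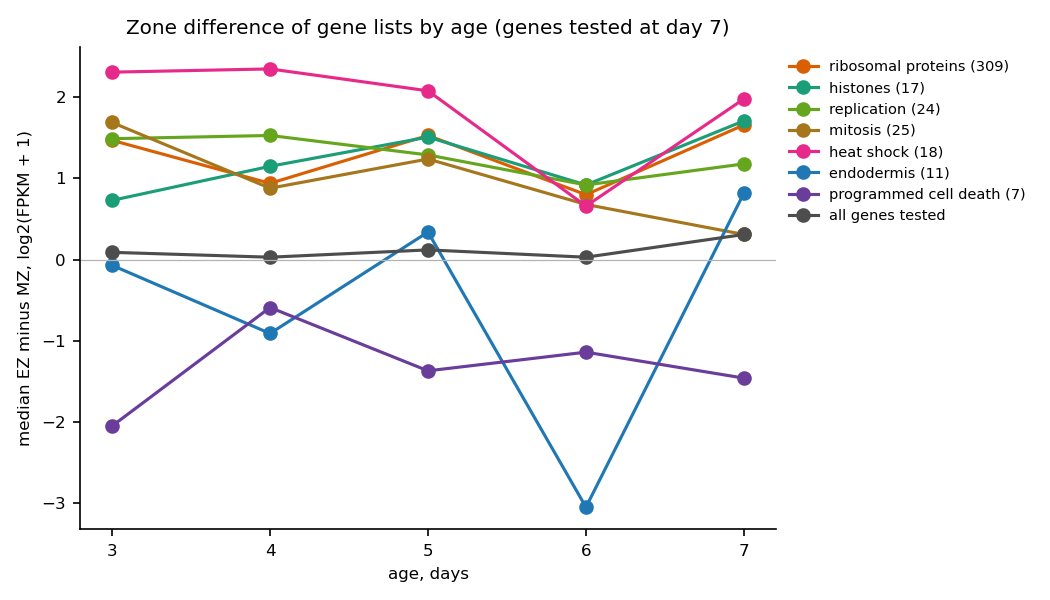
Median EZ minus MZ difference on the log2(FPKM + 1) scale of 7 gene groups and of all genes tested at days 3 to 7 (number of genes in brackets). Mitosis genes go from 1.69 at day 3 to 0.31 at day 7, heat shock genes are at 0.66 at day 6 and 1.98 at day 7, and endodermal genes at -3.05 and 0.82.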

How the data were processed

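RNA sequencing of sorted root cells was deposited as a table of FPKM for 33201 genes in 20 libraries, made by the authors. The submitters' processing notes name TopHat2 2.0.13, Cufflinks 2.1.1 and the build TAIR10, without roles or settings, and no scaling between libraries or combination of isoforms is given in the sources used here. FPKM are not counts, and an exact 0 was read as listed at 0.

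The analysis used log2(FPKM + 1), a scale that understates the change of low genes. Genes with at least 1 FPKM in both day 7 libraries of either zone were tested (17061). A mean for each of 10 groups was fitted over all 20 libraries by limma 3.58.1 (R 4.3.3), letting the variance follow the mean level, with two-sided tests and Benjamini-Hochberg adjustment over all 17061 genes at 0.05. The fit was tried on simulated independent normal values without shared replicate effects or a length trend, so that trial says nothing about those. Genes without overlap, or with a gap of at least 2-fold, between every EZ and MZ library were counted without a test.

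Locus identifiers were matched to the TAIR10.1 annotation for 32489 genes, which gave products and transcript lengths, and promoters were the 300 bases before each gene start. Depth was recovered from low FPKM values of transcripts of at least 2000 bp. Genes sharing at least 50% of their 32-base words with other genes (635 tested) and organelle genes (115 tested) were left out of ranked picks. The 26 lists held 465 genes, of which 375 were tested; families were taken from product words. Members and lists were chosen with earlier results of these data known. Named genes were the largest called differences with at least 10 FPKM, called or otherwise the 2 most abundant members per list, the strongest differences from days 3 to 6, the largest gaps between replicates, and 10 genes in any case; further list genes were picked as examples with their values in view. The settings varied were the pseudocount (0.1 and 5), other filters and scalings, removal of the length trend, library weights, a robust prior, a replicate block, fewer libraries and each library left out.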

Additional observations from a re-analysis of the deposited data

Results flagged for a closer look

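The zone difference at day 7 differed from that at days 3 to 6, by limma's test of that difference, for 5 named genes. AT3G01572, at 18.4 and 16.4 FPKM in EZ at day 7 and listed at 0 in the other 18 libraries, had an adjusted p of 3.42e-05 and passed in 30 of 30 alternatives. AT3G54804, at 28.9 and 22.4 FPKM in MZ at day 7 and listed at 0 in the other 18, had an adjusted p of 1.86e-05 and passed in 29 of 29. Both entered the test only through the day 7 zone where they are present, so the filter chose them by that difference and their p and their passing in these alternatives are no independent support. ACBP6, AT4G23885 and AT5G49540 each had an adjusted p of 0.0146, with differences of 1.94 ± 0.26, 1.90 ± 0.26 and 1.75 ± 0.25 (SE of the fit, 20 libraries). They passed in 25, 24 and 25 of 30 alternatives. Without the trend on transcript length they were at 1.35, 1.33 and 1.38, with adjusted p of 0.239, 0.365 and 0.239. Leaving out any 1 of the 4 day 7 libraries gave adjusted p of 0.0671 to 0.145 for ACBP6 and AT4G23885 and of 0.0671 to 0.14 for AT5G49540.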

How the results depend on the processing

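The direction of the ribosome, histone, replication, heat shock and programmed cell death medians held under every scaling and filter tried, while the number of genes past the limma threshold did not. The 25 calls became 98 with a pseudocount of 0.1 and 4 with 5, 127 at a filter of 5 FPKM, 7 after quantile normalisation, 5 after median-of-ratios scaling, 2 without the length trend, 2 with library weights, 3 from the 4 day 7 libraries alone, 4 from days 6 and 7 and 934 without day 6 (25 shared). Leaving out 1 library gave 2 to 606: 606 and 603 without MZ day 6 replicate 1 or 2, 103 without either EZ day 6 library, 32 without either MZ day 5 library, 8 without either EZ day 5 library, 3 to 5 without a library of days 3 or 4, and 3, 2, 19 and 2 without EZ day 7 replicate 1 or 2 or MZ day 7 replicate 1 or 2. Where a zone was left with 1 library, that library is assumed to vary like the other groups. The 26 calls against days 3 to 6 became 41 and 14 with pseudocounts of 0.1 and 5, 14 with 1 FPKM in any 2 day 7 libraries, 65 at 5 FPKM, 88 without a filter, 15 under each other scaling, 2 without the length trend, 7 with weights, and 2 to 52 without 1 library.

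The 2-fold count of 1267 became 352 at 3-fold, and ran from 2092 to 3473 when a zone kept 1 library, which is fewer conditions to meet. Of 25 lists, 10 had medians above that of all genes, 16 without a filter and 7 to 14 without 1 library. EXPA7, SMB and SHR, named in any case and not called, changed sign: EXPA7 to -0.16 without the length trend, to -0.02 under median-of-ratios scaling and within -0.61 to 1.28 without 1 library (-0.61 without MZ day 7 replicate 2, -0.49 without EZ day 7 replicate 1). SMB went to -0.16, -0.20 and -0.08 without the length trend, under median-of-ratios scaling and under quantile normalisation, and ran from -0.51 (without MZ day 7 replicate 1) to 0.83, with -0.25 without EZ day 7 replicate 2. SHR ran from -0.11 (without EZ day 7 replicate 1) to 1.68. The cause was not tested.

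Replicate numbers are shared between zones in the labels. The correlation of replicate differences between zones was 0.056, 0.355, 0.088, 0.046 and 0.443 at days 3 to 7. It was thus highest at day 7, and the main fit has no term for it. Whether libraries of one number were paired cannot be told from these values. With a replicate block within each age, 4 genes passed at day 7 and 12 against days 3 to 6. Depth limits the weakest genes, and 2 libraries a side limit the test.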
